A study of Mus musculus with 36 samples.

Results

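Peroxisomal genes were followed in mouse kidneys and tumors with and without ASPSCR1-TFE3, a gene fusion of human translocation renal cell carcinoma. The set held 44 of the 53379 genes in the count tables and was chosen by gene symbol: 14 peroxins, which build the organelle, 27 enzymes that work inside it, and 3 proteins of its membrane. The rule named the genes and used no measured value, although they were proposed with earlier results of these data known. All 44 were found, each as 1 Ensembl gene, and the question was how the biogenesis factors stood against the enzymes in the 7 groups of samples.

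Peroxisomes are organelles with a single membrane that shorten very long and branched fatty acids, make the first intermediates of ether lipids, oxidize D-amino acids and hydroxy acids, and destroy the hydrogen peroxide that these reactions release. Their matrix enzymes are made in the cytosol and carried in by the receptors Pex5 and Pex7, which dock on the membrane, hand over their cargo and are pulled back out by an ATPase complex. In the kidney, peroxisomes are most abundant in the proximal tubule, the nephron segment that takes most solutes back from the filtrate, and many genes for their enzymes are induced by the nuclear receptor PPAR alpha.

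RNA was sequenced from formalin-fixed, paraffin-embedded tissue in 36 libraries of 7 groups, and each library held between 80205573 and 121415057 counts. Libraries from the same mouse and tissue were summed, which left 28 samples, each a different animal within its group.

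In the Sglt2-Cre set, 6 mice of the genotype Sglt2-Cre; ASPSCR1-TFE3 LSL/+ gave kidney tumors (n = 6 mice, 11 libraries), retro-orbital tumors (n = 4), brain tumors (n = 3) and non-transformed kidney (n = 4). Mice with Sglt2-Cre alone gave the control kidneys (n = 3, 6 libraries). In the Pax8-Cre set, dysmorphic fetal kidneys came from 5 fetuses of the genotype Pax8-Cre; ASPSCR1-TFE3 LSL/+, and control fetal kidneys from 3 fetuses that the labels give as Pax8-Cre, while the description of the series also allows the fusion allele without Cre. LSL stands for a stop cassette that Cre removes, so the fusion is made only where the promoter has been active: Sglt2 is a glucose transporter of the proximal tubule and Pax8 a transcription factor of the whole nephron lineage. No treatment and no age in days is named, and the labels give the site of the retro-orbital and brain tumors, not their origin. Developmental stage, Cre driver and the set in which a library was submitted differ together, so that they cannot be told apart where kidneys of both sets are compared. By Y-linked transcripts the control kidneys were all from females and mice 1 and 5 were male, as were dysmorphic fetuses 1 to 3 and control fetus 1. The animals are the replicates, so p-values measure the spread between animals of a group.

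Some samples carried RNA of other cell types. In CPM, the count of a gene scaled to the total of its sample after TMM normalization, the summed level of 10 proximal tubule markers was 13586 to 14391 in control kidneys and 698 to 10626 CPM in kidney tumors, where mouse 1 held 3326, mouse 4 held 9435 and mouse 5 held 10626 CPM against 698 to 735 CPM in the other kidney tumors. Markers of the distal nephron and collecting duct (8 genes) summed to 5969 to 6729 CPM in control kidneys and 333 to 5851 CPM in kidney tumors. Of the 10 proximal tubule markers, retro-orbital tumors held 129 to 1298 CPM, with mouse 5 the highest. Dysmorphic fetal kidneys held 44.5 to 825 CPM of them, with fetus 5 the highest, against 1178 to 1501 CPM in control fetal kidneys. None of the 10 proximal tubule markers was at 0 in all animals of a group. The 8 brain markers summed to 129 to 1711 CPM in brain tumors, with mouse 2 the highest, and to 15.5 to 103 CPM in kidney tumors, with mouse 4 the highest, against 10.5 to 12.5 CPM in control kidneys. Leukocyte markers (6 genes) summed to 172 to 564 CPM in kidney tumors against 84.8 to 104 CPM in control kidneys, with 3 of 6 called higher. Skeletal muscle markers (5 genes) summed to 2022 to 4597 CPM in dysmorphic fetal kidneys against 762 to 1023 CPM in control fetal kidneys, with 5 of 5 called higher. The part of these cell types in the results was not tested. In bulk tissue, fewer cells of a type and less RNA per cell cannot be told apart.

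The peroxins and the enzymes differed in how far their levels moved across the groups. Levels were in CPM after TMM scaling over all 28 samples, and sums over genes were taken per kilobase of exon (CPM per kb). The 14 peroxins summed to 104 ± 6.3 CPM per kb (SD, n = 3) in control kidneys, 105 ± 7.55 (n = 4) in non-transformed kidneys and 88.6 ± 12.4 (n = 6) in kidney tumors. They were 64.3 ± 6.12 CPM per kb (n = 4) in retro-orbital tumors and 68.9 ± 1.79 (n = 3) in brain tumors. In the fetal kidneys the peroxin sum was 59.7 ± 6.15 CPM per kb (n = 3) in controls and 52.4 ± 3.33 (n = 5) in dysmorphic kidneys. Over all animals the peroxin sum ran from 48.1 CPM per kb in a dysmorphic fetal kidney to 115 in a non-transformed kidney.

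The enzymes spanned a wider range. Their sum was 2299 ± 198 CPM per kb (SD, n = 3) in control kidneys, 2482 (n = 4, range 2115 to 2758) in non-transformed kidneys and 1181 ± 506 (n = 6) in kidney tumors. It was 401 ± 45 CPM per kb (n = 4) in retro-orbital tumors and 409 ± 45 (n = 3) in brain tumors, groups that overlapped. In fetal kidneys it was 361 ± 101 CPM per kb (n = 3) in controls and 201 ± 50.9 (n = 5) in dysmorphic kidneys. Dividing the enzyme sum by the peroxin sum of the same animal gave 22.1 ± 0.6 in control kidneys, 23.9 ± 4.34 in non-transformed kidneys, 13.3 ± 5.18 in kidney tumors, 6.28 ± 0.898 in retro-orbital tumors, 5.93 ± 0.703 in brain tumors, 5.96 ± 1.15 in control fetal kidneys and 3.81 ± 0.744 in dysmorphic fetal kidneys. The ratio in kidney tumors ran from 9.02 to 21.5 and reached the lowest control kidney, which was also 21.5, through mouse 5. Every retro-orbital and brain tumor was below every kidney tumor. No p is given for these sums, since the genes were chosen with earlier results of these data known.

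**Figure D1:**
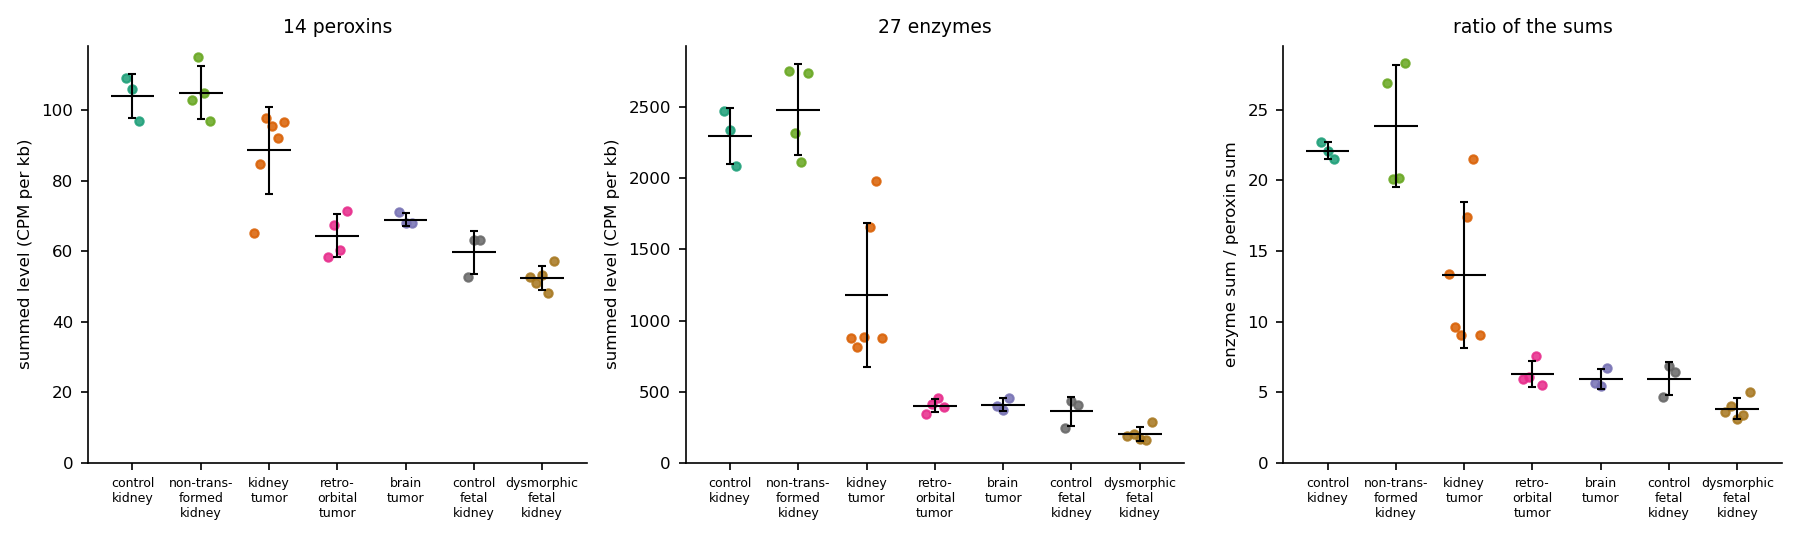
Summed levels (CPM per kb) of the 14 peroxins and of the 27 enzymes, and the ratio of both sums, in the 7 groups; points are animals, the long bar is the mean and the whiskers are the SD. The mean peroxin sum lies between 52.4 and 105 CPM per kb, whereas the mean enzyme sum lies between 201 and 2482 CPM per kb.

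Gene by gene, the median enzyme again lay further below control kidney than the median peroxin in every group except non-transformed kidney. As a share of the control kidney mean, and leaving out Hao1, the median peroxin stood at 101% in non-transformed kidney, 81.4% in kidney tumors, 53.3% in retro-orbital tumors, 52.6% in brain tumors, 52.3% in control fetal kidneys and 49.0% in dysmorphic fetal kidneys. The median enzyme stood at 105%, 46.5%, 11.7%, 13.7%, 17.5% and 8.31% in the same groups. In kidney tumors 14 of 26 enzymes and no peroxin were under 50% of the control mean. In retro-orbital tumors 12 of 26 enzymes were under 10%, against 1 of 14 peroxins, Pex11a, at 9.91%.

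**Figure D2:**
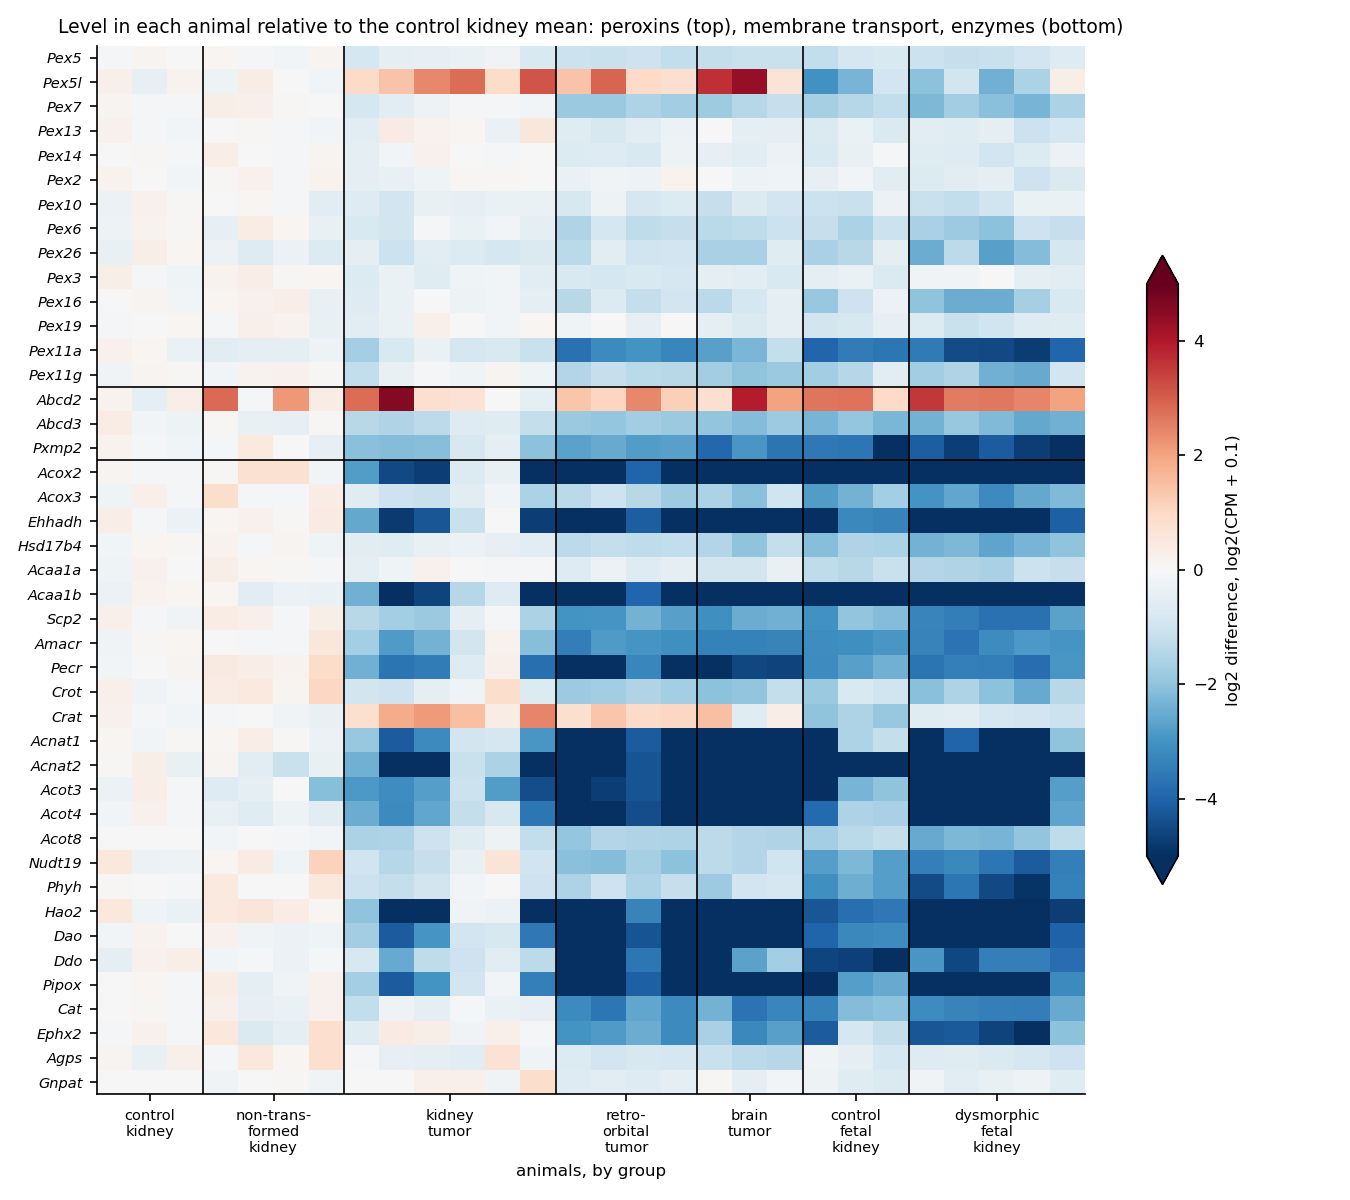
Level of each gene (rows) in each of the 28 animals (columns, by group) as the difference of log2(CPM + 0.1) from the control kidney mean; red is higher, blue is lower, and the color scale ends at 5 in both directions. Hao1 is left out because it had no count in the control kidneys. Blue is deepest among the enzymes of the retro-orbital, brain and fetal samples, and Pex5l is above the control kidney mean in every tumor of the 3 sites.

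Per kilobase, the most abundant members in control kidneys were enzymes. Phyh, the phytanoyl-CoA hydroxylase that starts alpha-oxidation of branched fatty acids, had a mean level of 294 CPM per kb. Acnat2, an acyl-CoA amino acid N-acyltransferase, had 282 CPM per kb and was followed by Cat, the catalase that breaks down hydrogen peroxide. Among peroxins the highest were Pex2, a ubiquitin ligase of the import machinery, at 19.1 CPM per kb, and Pex13, a docking factor, at 15.5. The lowest was Pex5l, a relative of Pex5 best known from neurons, at 0.309 CPM per kb. Phyh ranked first of the 44 members in all 5 groups of the Sglt2-Cre set, whereas Cat ranked first in control fetal kidneys and Hsd17b4 in dysmorphic fetal kidneys.

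Because enzymes and peroxins differed, their promoters were read for letters that transcription factors of interest recognize. RefSeq promoters (build GRCm38.p6, 250 bases before to 50 bases after the start) were matched for 11 of 14 peroxins, 23 of 27 enzymes and 1 of 3 membrane proteins. CACGTG, the E-box bound by TFE3 and its relatives, was in no matched peroxin and in 4 enzymes (Acot4, Dao, Ddo and Gnpat), against 8.09% of all 27025 genes. AGGTCA, the half-site of nuclear receptors such as PPAR alpha, was in 1 peroxin (Pex11g) and in 7 enzymes (Acot3, Acot4, Cat, Dao, Ddo, Phyh and Scp2), against 18.1% of all genes. Both strands were searched. These are matches of letters, not sites shown to be bound.

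The promoters of Acot4, Cat, Ddo and Pex11a are printed because these genes stood among those with large differences between tumor sites; capitals mark an E-box or a half-site on either strand. Acot4 is at chr12:84038129-84038428 on the plus strand, Cat at chr2:103485104-103485403 on the minus strand, Ddo at chr10:40629761-40630060 on the plus strand and Pex11a at chr7:79743082-79743381 on the minus strand.
Acot4: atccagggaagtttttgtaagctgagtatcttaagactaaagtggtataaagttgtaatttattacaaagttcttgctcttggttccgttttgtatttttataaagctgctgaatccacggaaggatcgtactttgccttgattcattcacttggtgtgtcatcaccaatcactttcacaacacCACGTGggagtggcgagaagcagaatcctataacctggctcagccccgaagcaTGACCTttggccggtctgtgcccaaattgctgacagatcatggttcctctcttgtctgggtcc
Cat: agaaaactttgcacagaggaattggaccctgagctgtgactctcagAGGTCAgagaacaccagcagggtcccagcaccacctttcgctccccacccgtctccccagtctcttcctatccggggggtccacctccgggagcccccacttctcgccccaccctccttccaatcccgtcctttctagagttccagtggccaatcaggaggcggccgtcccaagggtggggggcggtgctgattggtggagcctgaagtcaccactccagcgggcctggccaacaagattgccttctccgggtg
Ddo: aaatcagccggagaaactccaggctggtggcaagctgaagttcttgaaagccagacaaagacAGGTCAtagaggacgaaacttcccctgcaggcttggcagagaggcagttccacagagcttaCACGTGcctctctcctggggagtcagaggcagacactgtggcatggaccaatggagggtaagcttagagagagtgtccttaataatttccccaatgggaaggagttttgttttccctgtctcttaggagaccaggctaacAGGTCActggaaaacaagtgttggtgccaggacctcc
Pex11a: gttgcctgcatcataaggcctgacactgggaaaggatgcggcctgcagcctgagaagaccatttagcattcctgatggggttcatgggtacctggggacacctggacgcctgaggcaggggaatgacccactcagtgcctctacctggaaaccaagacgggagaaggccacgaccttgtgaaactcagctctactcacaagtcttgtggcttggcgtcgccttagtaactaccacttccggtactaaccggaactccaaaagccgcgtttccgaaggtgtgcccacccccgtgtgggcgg

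Kidney tumors were compared to control kidneys to ask which peroxisomal genes differ in tumor tissue of the same organ. Crat and Pex5l were higher in kidney tumors, and 9 members were lower: the peroxins Pex11a and Pex26, the enzymes Acot3, Acot4, Acot8, Ddo and Hsd17b4, and the membrane proteins Abcd3 and Pxmp2. These 11 of 44 members tested were called at an adjusted p under 0.05 (edgeR quasi-likelihood test, adjusted over all genes by Benjamini-Hochberg), where 19.0% of the 23578 genes tested were called. Over all genes 6.51% were called lower and 12.5% higher. The groups did not overlap for 20 members, 18 of them lower, against 29.8% of all genes in either direction. The median log2 fold change was -0.32 over the peroxins and -1.06 over the enzymes, beside 0.05 over all genes tested.

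Crat (ENSMUSG00000026853.15, chromosome 2, 30400471 to 30415813, minus strand, GRCm38) encodes carnitine acetyltransferase, which moves acetyl groups onto carnitine in peroxisomes and mitochondria. Its level was 122, 99.3 and 95.3 CPM in the control kidneys and from 134 to 566 CPM in kidney tumors, with a median of 343. No tumor reached down to a control kidney. The log2 fold change was 1.66 ± 0.44 (SE), with an edgeR adjusted p of 0.0304. Pex5l (ENSMUSG00000027674.16, chromosome 3, 32949408 to 33143247, minus strand) was at 3.22, 1.96 and 3.02 CPM in control kidneys and from 5.1 to 24.2 CPM in kidney tumors, with a median of 10.9, and its log2 fold change was 2.18 ± 0.58 (edgeR adjusted p = 0.0316). Neither gene overlapped between the groups. The brain markers were also above 0 in log2 fold change for 7 of 7 tested in this comparison, with 1 called and a median of 2.47, and their part in the Pex5l result was not tested. Crat shares exon positions with the antisense gene Dolpp1 and Pex5l with the antisense gene models Gm37459 and 4930419G24Rik, and whether the counting used strand is not given in the sources used here. The other receptors stood differently: Pex5, which carries most matrix enzymes, had 25.6 to 30.4 CPM in control kidneys and 14.9 to 24.1 CPM in kidney tumors, with no overlap, but its difference of -0.52 ± 0.17 was not called (edgeR adjusted p = 0.0643).

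Among the other peroxins, Pex11a, which elongates peroxisomes before they divide, had 28.4, 25.8 and 19.2 CPM in control kidneys and 7.4 to 19.0 CPM in kidney tumors (median 13.8). It fell by 0.90 ± 0.26 on the log2 scale (edgeR adjusted p = 0.0398). The highest tumor lay just under the lowest control. Pex26 anchors the ATPase complex to the membrane, and its levels were low, at 3.89, 6.14 and 5.42 CPM in control kidneys and 2.34 to 3.69 CPM in kidney tumors. It fell by 0.77 ± 0.23 (edgeR adjusted p = 0.0418). The remaining 11 peroxins were not called, with log2 fold changes from -0.53 for Pex10, a ubiquitin ligase, to 0.08 for Pex13. The docking factors Pex13 and Pex14 and the membrane protein chaperone Pex19 had means of 94.6% to 107% of the control kidney mean.

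At the membrane, Abcd3, a transporter of long and branched acyl-CoA, was at 1043, 730 and 682 CPM in control kidneys and 285 to 527 CPM in kidney tumors (median 339). It fell by 1.10 ± 0.24 on the log2 scale (edgeR adjusted p = 0.0143). The groups did not overlap. Pxmp2, a channel for small metabolites, had 43.8, 37.3 and 35.6 CPM in control kidneys and 8.56 to 28.2 CPM in kidney tumors (median 9.17), and fell by 1.46 ± 0.42 (edgeR adjusted p = 0.0389). Its tumor values were split, with mice 4 and 5 at 22.2 and 28.2 CPM and the others at 8.56 to 9.23. Abcd2, a transporter of very long acyl-CoA, was at 0.875 to 1.61 CPM in control kidneys and 0.864 to 33.3 CPM in kidney tumors and was not called. Its highest tumor, mouse 2, also held 159 CPM of the adipocyte gene Adipoq, which was 0.064 to 33.3 CPM in the other kidney tumors, and the part of fat tissue in this result was not tested.

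Of the beta-oxidation enzymes, only Hsd17b4, the D-bifunctional protein that hydrates and oxidizes acyl chains, was called. It had 461, 535 and 521 CPM in control kidneys and 331 to 410 CPM in kidney tumors, a small fall of 0.49 ± 0.11 on the log2 scale (edgeR adjusted p = 0.0192) with little spread in either group. Ehhadh, the L-bifunctional protein, had 748, 581 and 495 CPM in control kidneys and 21.4 to 599 CPM in kidney tumors (median 67.3). Its log2 fold change of -1.81 ± 0.99 was not called (edgeR adjusted p = 0.216). The tumors of mice 4 and 5, at 277 and 599 CPM, stood far above those of mice 2, 3 and 6, at 21.4, 31.1 and 22.6 CPM. The same split was seen for Acox2, a branched-chain acyl-CoA oxidase, at 64.5 and 80.9 CPM in mice 4 and 5 against 3.01 to 4.55 CPM in mice 2, 3 and 6. Control kidneys held 98.4 to 115 CPM of Acox2. Acaa1b, a thiolase, had 83.2 and 141 CPM in mice 4 and 5, 5.67 to 8.98 CPM in mice 2, 3 and 6, and 184 to 253 CPM in control kidneys. Its close paralog Acaa1a, with which it may share reads, was at 49.7 to 79.6 CPM in kidney tumors and 59.6 to 81.3 CPM in control kidneys, and the groups overlapped.

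Thioesterases, which free fatty acids from coenzyme A, were lower as a group of 3. Acot3 had 13.6, 21.4 and 16.3 CPM in control kidneys and 0.679 to 7.85 CPM in kidney tumors (median 2.28), and fell by 2.60 ± 0.58 on the log2 scale (edgeR adjusted p = 0.0173). Acot4, which acts on succinyl-CoA, had 38.2, 47.8 and 39.7 CPM in control kidneys and 3.28 to 23.6 CPM in kidney tumors, and fell by 2.0 ± 0.56 (edgeR adjusted p = 0.0376). Acot8, of broad specificity, had 8.87, 8.95 and 8.64 CPM in control kidneys and 2.86 to 7.32 CPM in kidney tumors, and fell by 1.0 ± 0.31 (edgeR adjusted p = 0.0497). No tumor reached a control kidney for any of them. Acot3 and Acot4 are neighbors that share exons with the gene model Gm49366, so reads may have been divided between them.

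Among the oxidases, Ddo, which oxidizes D-aspartate, was called. It had 21.1, 34.2 and 35.8 CPM in control kidneys and 5.1 to 19.9 CPM in kidney tumors (median 13.4), and fell by 1.20 ± 0.36 on the log2 scale (edgeR adjusted p = 0.0459). Dao, which oxidizes other D-amino acids, had 196, 244 and 210 CPM in control kidneys and 11.9 to 124 CPM in kidney tumors, without overlap, but was not called (edgeR adjusted p = 0.0742). Cat had 650, 685 and 619 CPM in control kidneys and 278 to 603 CPM in kidney tumors (median 500), without overlap but with a log2 difference of -0.45 ± 0.20 that was not called (edgeR adjusted p = 0.14). Ephx2, the soluble epoxide hydrolase, overlapped fully, at 170, 214 and 171 CPM in control kidneys and 122 to 244 CPM in kidney tumors, with a log2 fold change of 0.02 ± 0.22 (edgeR adjusted p = 0.956). Agps and Gnpat, which make the first intermediates of ether lipids, were at 91.7% and 119% of the control kidney mean and were not called. Hao1, the liver glycolate oxidase, had no count in control kidneys and at most 0.102 CPM in kidney tumors. A count of 3, the floor used here, was 0.0128 to 0.0141 CPM in the control kidneys, which covers counting error only.

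Both the number of called members and the enzyme median moved with the samples. Without the kidney tumors of mice 4 and 5, which held the most proximal tubule marker RNA, 26 of 43 members were called, 24 of them lower and Crat and Pex5l still higher, while the genes called among all tested went from 4474 to 7845. The enzyme median was then -1.52 beside a peroxin median of -0.43; the part of tubule RNA in the difference was not tested. Leaving out control mouse 1, 2 or 3 left 3, 0 and 1 members called, with 2084, 1163 and 1207 genes called in all. Crat and Pex5l were lost each time, both were also lost without mouse 3, and Crat was lost without mouse 2. Without mouse 5, 20 members and 5856 genes were called, while the enzyme median stayed between -1.32 and -0.96 when any 1 mouse was left out.

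**Figure D3:**
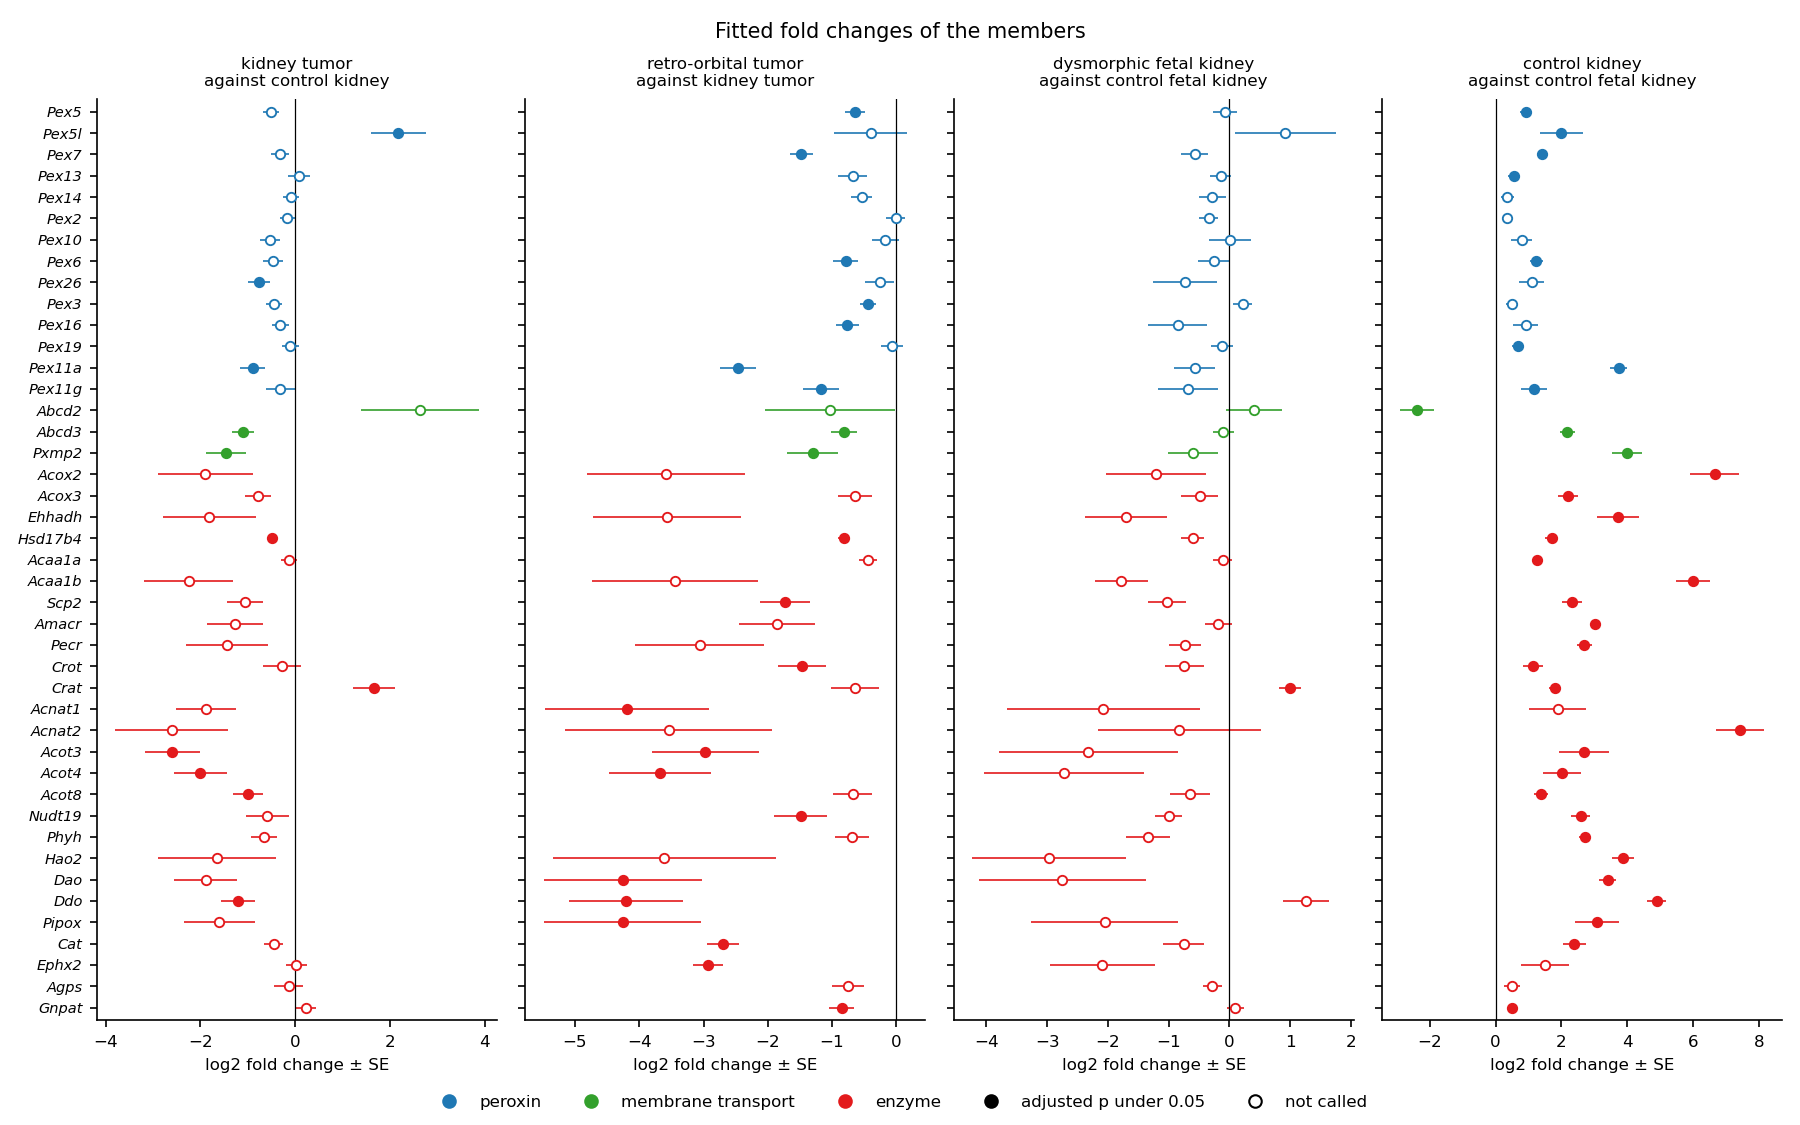
Fitted log2 fold changes of 43 members (Hao1 left out) in 4 comparisons, with bars for the SE; filled points have an adjusted p under 0.05 and colors mark peroxins, membrane proteins and enzymes. The horizontal axes differ between panels. In kidney tumors against control kidneys Pex5l and Crat are filled to the right of 0, and in retro-orbital against kidney tumors all 22 filled points lie to the left.

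The 11 kidney tumor libraries showed how the enzymes and peroxins varied within the group. Here CPM was scaled over the 36 libraries, so values differ slightly from those given per mouse. The enzyme sum was 638 to 1897 CPM per kb and the peroxin sum 62.9 to 107 CPM per kb. Tumor libraries of the same mouse differed by at most 1.24 times in the peroxin sum, in mouse 3, and by at most 1.71 times in the enzyme sum, in mouse 1. In mouse 1 the library with 5131 CPM of proximal tubule markers had 1092 CPM per kb of enzymes, and that with 1469 CPM of markers had 638. Single genes differed more: Acox2 by 17.8 times and Hao2, a hydroxy acid oxidase of the kidney, by 12.2 times between the libraries of mouse 1. In mouse 4, Pex5l was 3.97 and 33.2 CPM and Crat 125 and 454 CPM in the 2 libraries, of which the first held more marker RNA, at 10554 against 7349 CPM.

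**Figure D4:**
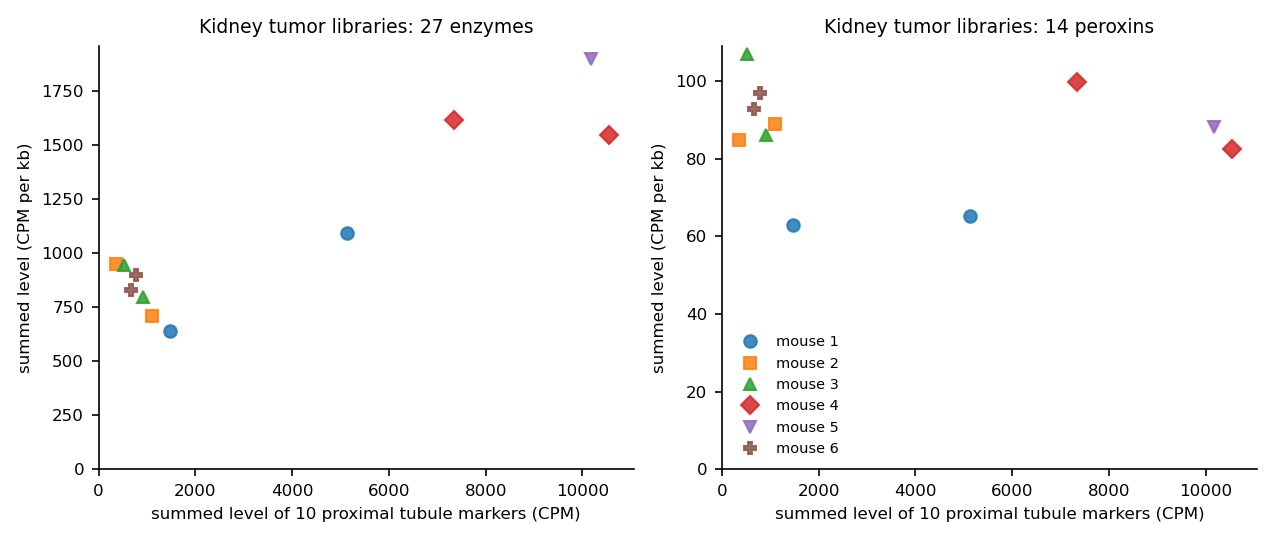
Summed level (CPM per kb) of the 27 enzymes and of the 14 peroxins against the summed level of 10 proximal tubule markers (CPM) in the 11 kidney tumor libraries, with a symbol for each mouse. The 3 libraries with the highest enzyme sums, from mice 4 and 5, hold 7349 to 10554 CPM of markers, and the peroxin sums of those libraries, 82.4 to 99.7 CPM per kb, lie within the range of the others.

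Against non-transformed kidney of the fusion mice, the same kidney tumors again had higher Crat and Pex5l. Crat and Pex5l were higher and 12 members were lower, in all 14 of 44 tested, where 17.1% of 21930 genes were called, 12.1% higher and 5.02% lower. Crat was at 97.6, 104, 93.7 and 81.5 CPM in non-transformed kidneys, below every kidney tumor, with a log2 fold change of 1.78 ± 0.37 (edgeR adjusted p = 0.011), and Pex5l, at 2.25 to 3.44 CPM there, had 2.16 ± 0.49 (edgeR adjusted p = 0.0157). The lower members were the peroxins Pex3, which inserts membrane proteins, and Pex5, the membrane proteins Abcd3 and Pxmp2, and the enzymes Acot3, Acnat1, Scp2, Acox3, Ddo, Phyh, Acot8 and Hsd17b4. Pex11a and Pex26, the peroxins lower against control kidney, were at 16.3 to 20.3 and 3.11 to 4.14 CPM in non-transformed kidneys. Neither was called in this comparison (edgeR adjusted p = 0.144 and 0.302). Phyh was at 790, 563, 567 and 801 CPM in non-transformed kidneys and 245 to 559 CPM in kidney tumors, and fell by 0.97 ± 0.27 on the log2 scale (edgeR adjusted p = 0.0326). Scp2, a thiolase that also carries sterols, was at 452 to 616 CPM in non-transformed kidneys and 129 to 441 CPM in kidney tumors, and fell by 1.29 ± 0.35 (edgeR adjusted p = 0.0331). The medians of the log2 fold change were -0.43 over peroxins and -1.24 over enzymes, beside -0.02 over all genes. With the mouse as a block, which uses the 4 mice that gave both tissues, no member and 847 genes were called and the medians were -0.34 and -1.08, and without mouse 3 no member and 1252 genes were called. Without the kidney tumors of mice 4 and 5, 29 members were called, and the genes called in all went from 3755 to 7115. This comparison and the one with control kidneys share the kidney tumors, so their lists are not independent of each other.

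Non-transformed kidney of fusion mice was close to control kidney for these genes. None of 43 members was called, where 0.00952% of 21019 genes were (2 genes), and 5 members had an unadjusted p under 0.05, against 11.7% of all genes: Pex11a, Acot4, Abcd2, Pecr and Crot. By DESeq2 no member and 493 genes were called. The median log2 fold change was 0.02 over peroxins and 0.08 over enzymes, and the groups did not overlap for 1 member that was higher and 1 that was lower, against 11.5% of all genes in either direction. Acot4 was at 32.4, 27.5, 34.8 and 29.2 CPM in non-transformed kidneys and 38.2 to 47.8 CPM in control kidneys. Pecr, an enoyl-CoA reductase, was at 149, 137, 123 and 201 CPM against 98.1 to 118 CPM. The non-transformed kidneys did carry 111 to 447 CPM of Gpnmb, a lysosomal glycoprotein gene that was at 1.54 to 2.46 CPM in control kidneys and at 2826 to 7324 CPM in kidney tumors.

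Retro-orbital tumors were compared to kidney tumors to ask whether tumors outside the kidney hold the same peroxisomal genes. They had far lower levels of the enzymes and somewhat lower levels of the peroxins: 22 of 44 members were called, all lower, where 17.7% of 22136 genes were called and 9.45% were lower. Of the 22, 7 were peroxins, 13 enzymes and 2 membrane proteins. In log2 fold change the median was -0.59 over peroxins and -2.70 over enzymes, beside -0.09 over all genes. The groups did not overlap for 18 members, all lower, against 7.82% of all genes.

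Cat and Ephx2, which did not pass the test between kidney tumors and control kidneys, were lower at the retro-orbital site. Cat was at 71.5, 53.4, 106 and 71.1 CPM in retro-orbital tumors against 278 to 603 CPM in kidney tumors, a fall of 2.70 ± 0.25 on the log2 scale (edgeR adjusted p = 0.00116). Ephx2 was at 22.9, 25.4, 33.1 and 20.3 CPM against 122 to 244 CPM, a fall of 2.93 ± 0.24 (edgeR adjusted p = 0.000801). Neither gene overlapped, and the kidney tumors poor in proximal tubule markers, those of mice 2, 3 and 6, held 477 to 539 CPM of Cat and 172 to 244 CPM of Ephx2. Without the kidney tumors of mice 4 and 5, both genes were still called in this comparison, as they were in each of the 16 alternative analyses, with log2 fold changes from -2.83 to -2.52 for Cat and from -3.07 to -2.79 for Ephx2. The part of tubule RNA in these differences was not tested.

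The oxidases of amino acids were under 1 CPM in 3 of the 4 retro-orbital tumors. Ddo was at 0.252, 0.230, 2.31 and 0.149 CPM in retro-orbital tumors, against 5.1 to 19.9 CPM in kidney tumors, and fell by 4.21 ± 0.89 (edgeR adjusted p = 0.0109). Dao was at 0.651, 0.323, 10.8 and 0.830 CPM against 11.9 to 124 CPM, and fell by 4.26 ± 1.23 (edgeR adjusted p = 0.0388). Pipox, which oxidizes pipecolic acid and sarcosine, was at 0.399, 0.459, 7.33 and 0.764 CPM and fell by 4.26 ± 1.22 (edgeR adjusted p = 0.037). In each case the third value is that of mouse 5, whose retro-orbital tumor held 1298 CPM of proximal tubule markers against 129 to 223 CPM in the others. Acot3 and Acot4 fell by 2.97 ± 0.84 and 3.68 ± 0.79, to 0.0913 to 0.744 CPM and 0.305 to 1.84 CPM. Acnat1, Scp2, Nudt19, Crot, Gnpat and Hsd17b4 were the other enzymes called, of which Hsd17b4, at 206, 221, 211 and 213 CPM, had the smallest fall, 0.81 ± 0.09 (edgeR adjusted p = 0.00139).

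Pex11a had the largest fall of the peroxins. It was at 1.72, 2.59, 2.93 and 2.46 CPM in retro-orbital tumors against 7.4 to 19.0 CPM in kidney tumors, a fall of 2.47 ± 0.28 on the log2 scale (edgeR adjusted p = 0.00139). Pex7, the receptor for a small set of enzymes that includes Agps and Phyh, was at 15.7, 15.8, 19.4 and 16.9 CPM against 31.4 to 54.2 CPM, and fell by 1.48 ± 0.18 (edgeR adjusted p = 0.00139). Neither overlapped. Pex11g, Pex6, Pex16, Pex5 and Pex3 fell by 1.17, 0.79, 0.76, 0.64 and 0.44 on the log2 scale. Pex2, at 34.2, 38.2, 36.5 and 48.6 CPM against 31.2 to 45.2 CPM, overlapped the kidney tumors, Pex19, at 37.5, 44.5, 32.4 and 44.5 CPM, lay within their range of 30.4 to 52.5 CPM, and neither was called. Crat, at 182, 278, 203 and 216 CPM, lay within the kidney tumor range and above every control kidney.

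The fall of the enzyme median depended on which kidney tumors were taken. Without the kidney tumors of mice 4 and 5 the enzyme median was -1.19 beside a peroxin median of -0.45, and 13 members were called, 12 of them also in the full comparison, while the genes called in all went from 3919 to 3529. With the mouse as a block, 21 members and 2677 genes were called with medians of -0.60 and -2.06, and without mouse 2, 3 or 6 there were 7, 7 and 8 members and 1805, 1635 and 1775 genes called.

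Brain tumors stood near retro-orbital tumors. Against kidney tumors, 10 of 44 members were called, all lower, where 8.74% of 23391 genes were called and 4.20% were lower: the peroxins Pex7 and Pex11g and the enzymes Dao, Acnat1, Pipox, Acot4, Acot3, Cat, Ephx2 and Hsd17b4. Cat was at 126, 49.8 and 67.7 CPM, a fall of 2.53 ± 0.36 on the log2 scale (edgeR adjusted p = 0.00818). Ephx2 was at 59.5, 19.4 and 28.3 CPM, a fall of 2.38 ± 0.39 (edgeR adjusted p = 0.014). Hsd17b4 was at 182, 126 and 219 CPM and fell by 1.01 ± 0.19 (edgeR adjusted p = 0.0182). All were below every kidney tumor. Crat was not called, at 294, 69.3 and 131 CPM in brain tumors, and the brain tumor of mouse 2 lay below every control kidney. The median log2 fold change was -0.44 over peroxins and -2.12 over enzymes, beside 0.03 over all genes. The groups did not overlap for 22 members, all lower, against 15.0% of all genes in either direction. With the mouse as a block no member, and no gene at all, was called, with medians of -0.40 and -2.14, 4 members and 1012 genes were called without the brain tumor of mouse 2, none of the members and 300 genes without all tissues of mouse 2, and without the kidney tumors of mice 4 and 5 the enzyme median was -1.27.

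Between both tumor sites outside the kidney no difference was called. None of 44 members passed, where 1.73% of 21037 genes did, and 4 members had an unadjusted p under 0.05, against 21.5% of all genes. DESeq2 called 3 members and 3080 genes, and a fit of all groups together called 2 members and 3816 genes, against 364 genes by edgeR on the groups compared. Medians were 0.04 over peroxins and -0.24 over enzymes, and the enzyme median became 0.34 without mouse 5, whose retro-orbital tumor held the most tubule marker RNA. Pex5l was at 34.7, 57.1 and 4.24 CPM in brain tumors and at 7.39, 20.6, 5.49 and 4.92 CPM in retro-orbital tumors, with a log2 fold change of 1.71 ± 0.86 (edgeR adjusted p = 0.307). Among brain tumors, Pex5l was highest in mouse 2. The neuronal gene Snap25 was at 2.39, 297 and 15.0 CPM in the brain tumors of mice 1, 2 and 4, the myelin gene Mbp at 29.5, 327 and 61.3 CPM, and the neuronal gene Rbfox3 at 92.8, 58.6 and 56.6 CPM, and the part of brain RNA in Pex5l was not tested. Ddo was at 0.140, 4.54 and 8.97 CPM in brain tumors. Ddo thus lay above every retro-orbital tumor in mice 2 and 4 and below each of them in mouse 1.

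**Figure D5:**
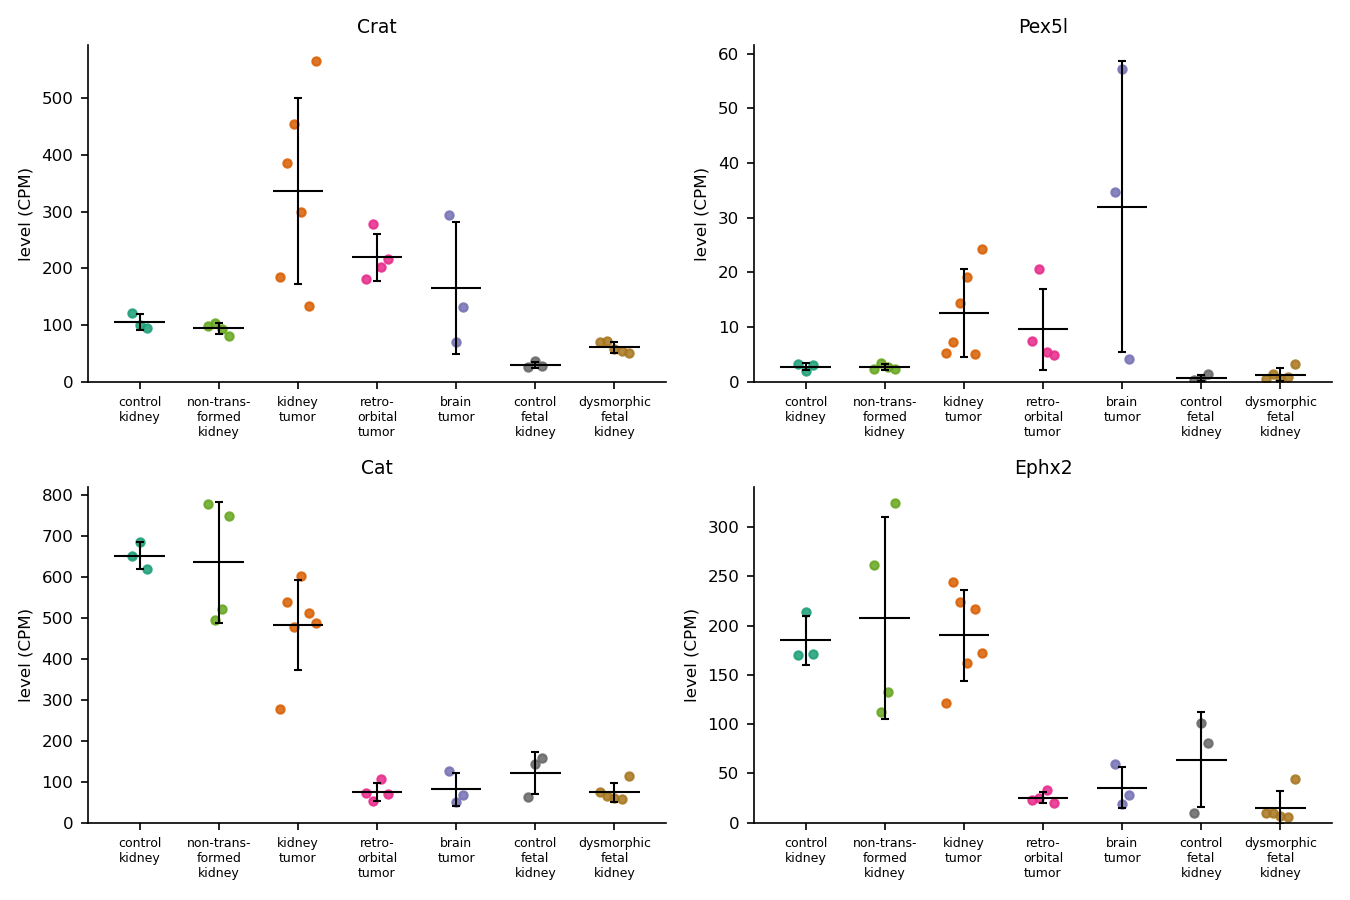
Level (CPM) of Crat, Pex5l, Cat and Ephx2 in each animal of the 7 groups, with the mean (long bar) and SD (whiskers). Crat is above the control kidneys in all kidney and retro-orbital tumors, but the brain tumors, at 69.3 to 294 CPM, overlap the control kidneys. Cat and Ephx2, at 278 to 603 and 122 to 244 CPM in kidney tumors, are at or under 126 and 59.5 CPM in all retro-orbital and brain tumors.

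In fetal kidneys, dysmorphic kidneys were compared to controls to ask what the fusion does under Pax8-Cre. Crat was the only member called: it was at 69.7, 71.3, 58.3, 53.4 and 50.1 CPM in dysmorphic kidneys and at 25.7, 35.9 and 27.9 CPM in controls. Every dysmorphic kidney was above every control, with a log2 fold change of 1.0 ± 0.18 (edgeR adjusted p = 0.0379). The skeletal muscle markers were also higher in every dysmorphic kidney than in every control, for 5 of 5 genes, and their part in the Crat result was not tested. Crat is 1 of 43 members tested, where 2.67% of 22690 genes were called and 2.40% were higher. The median log2 fold change was -0.26 over peroxins and -0.91 over enzymes, beside -0.04 over all genes, and 36 of 43 members had a value below 0, as did 53.6% of all genes. Nudt19, which splits coenzyme A, was at 25.7, 29.0, 22.4, 15.3 and 25.1 CPM against 39.9, 58.0 and 40.6 CPM in controls, with no overlap and an edgeR adjusted p of 0.0586. Phyh was at 25.1, 45.1, 24.4, 18.4 and 54.1 CPM against 66.4, 103 and 81.5 CPM (edgeR adjusted p = 0.0916). Crat was not called with sex as a covariate (5 genes called in all), in the fit of all groups together (271 genes), or when any fetus but dysmorphic fetus 2 or 5 was left out (0 genes). Without fetus 5, the dysmorphic kidney with the most proximal tubule marker RNA, 8 members were called, 7 of them lower, and the genes called in all went from 605 to 1141.

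Control fetal kidneys held less of the enzymes than the control kidneys of the Sglt2-Cre set. Developmental stage, Cre driver and set differ together in this comparison and cannot be told apart. Skeletal muscle markers summed to 762 to 1023 CPM in control fetal kidneys and 0.77 to 3.86 CPM in control kidneys. The part of muscle RNA was not tested. Compared to control fetal kidneys, the control kidneys of the Sglt2-Cre set had 33 of 43 members higher and 1 lower, where 49.0% of 22859 genes were called, 23.9% higher and 25.1% lower. Higher were 8 of 14 peroxins, 23 of 26 enzymes and the membrane proteins Pxmp2 and Abcd3. Medians of the log2 fold change were 0.91 over peroxins and 2.49 over enzymes, beside -0.03 over all genes. The groups did not overlap for 40 members that were higher and 1 that was lower, against 31.7% and 29.2% of all genes. With upper quartile scaling, which moved the median of all genes to -0.26, the medians were 0.69 and 2.27.

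The steepest differences were in the acyltransferase Acnat2, at 506, 599 and 373 CPM in control kidneys and 5.31, 2.09 and 1.06 CPM in control fetal kidneys, with a log2 fold change of 7.43 ± 0.72 (edgeR adjusted p = 0.000412). Acox2 followed, at 2.12, 0.609 and 0.360 CPM in control fetal kidneys, with 6.66 ± 0.75 (edgeR adjusted p = 0.000739), and Acaa1b, at 5.38, 3.52 and 1.53 CPM, with 5.99 ± 0.51 (edgeR adjusted p = 0.000265). Pex11a again had the largest difference of the peroxins, at 1.46, 2.06 and 1.89 CPM in control fetal kidneys, with 3.74 ± 0.25 (edgeR adjusted p = 9.87e-05). Pex2, Pex3, Pex10, Pex14, Pex16 and Pex26 were the peroxins not called, and Acnat1, Ephx2 and Agps the enzymes not called. Agps was at 252, 204 and 156 CPM in control fetal kidneys and 219 to 338 CPM in control kidneys, and the groups overlapped. Abcd2 was higher in fetal kidney, at 8.55, 8.99 and 2.62 CPM, than in control kidney, with a log2 fold change of -2.38 ± 0.52 (edgeR adjusted p = 0.00988).

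Whether the fusion acts on these genes alike under both Cre drivers was asked with an interaction term, the difference between kidney tumors and control kidneys minus that between dysmorphic and control fetal kidneys. Ddo was the only 1 of 43 members called, where 8.94% of 24444 genes were called and 2.07% had a negative interaction. Ddo was lower in kidney tumors than in control kidneys and was at 3.89, 1.15, 2.64, 2.66 and 1.99 CPM in dysmorphic against 1.12, 1.06 and 0.842 CPM in control fetal kidneys. The difference of the differences was -2.45 ± 0.53 on the log2 scale (edgeR adjusted p = 0.0102). Ddo was called in 25 of 26 alternative analyses, the exception being the fit of all groups together. Over the peroxins and the enzymes the median interaction was 0.12 and 0.15, beside 0.16 over all genes; without the kidney tumors of mice 4 and 5 the enzyme median was -0.55 and 5 members were called, all negative, while the genes called in all went from 2185 to 4253. For Crat the interaction was 0.71 ± 0.50 (edgeR adjusted p = 0.418).

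The receptors and coactivators that induce peroxisomal enzymes were a list of 7 genes, and they did not move together. Ppara, which encodes PPAR alpha, was at 76.4, 94.8 and 65.9 CPM in control kidneys and 15.8 to 39.5 CPM in kidney tumors, a fall of 1.87 ± 0.28 on the log2 scale (edgeR adjusted p = 0.00302). It was lower again in retro-orbital tumors, at 5.63 to 10.1 CPM (log2 fold change -1.49, edgeR adjusted p = 0.00778), and in brain tumors, at 4.98 to 9.64 CPM (-1.59, edgeR adjusted p = 0.0356). Pparg, a receptor of fat cells, was at 4.29 to 6.72 CPM in control kidneys and 15.6 to 114 CPM in kidney tumors, with a log2 fold change of 3.46 ± 0.70 (edgeR adjusted p = 0.0119). Adipocyte markers (4 genes) had a median log2 fold change of 3.04 in this comparison, with none called. They summed to 0.19 to 199 CPM in kidney tumors and 2.01 to 5.46 CPM in control kidneys, and their part in the Pparg result was not tested. The coactivator gene Ppargc1a was at 301 to 336 CPM in control kidneys and 363 to 907 CPM in kidney tumors, without overlap, and was not called (edgeR adjusted p = 0.0612). Of the 7 genes, 1 was called higher and 2 lower in kidney tumors against control kidneys, beside 12.5% and 6.51% of all genes. Against non-transformed kidney 3 were higher and 2 lower, beside 12.1% and 5.02%. In retro-orbital against kidney tumors 0 were higher and 2 lower, beside 8.26% and 9.45%.

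A further list of 38 peroxisomal genes outside the 44 showed the direction of the enzymes with a smaller median in most comparisons. In kidney tumors against control kidneys 9 of 36 tested were lower and 1 higher, beside 6.51% and 12.5% of all genes (median log2 fold change -0.46), and in retro-orbital against kidney tumors 10 of 36 were lower and 1 higher, beside 9.45% and 8.26% of all genes (median -0.54). Against kidney tumors, brain tumors had 6 lower and 4 higher, beside 4.20% and 4.54% of all genes (median -0.65), and dysmorphic against control fetal kidneys had none of 38 called (median -0.42, with 12 at an unadjusted p under 0.05, as were 20.3% of all genes). In control against fetal kidney 27 of 37 were higher and 1 lower, beside 23.9% and 25.1% of all genes, with a median of 1.36. In non-transformed against control kidney the list median was -0.03, where that of the enzymes was 0.08. Without Slc27a2, which is also among the proximal tubule markers, the list median in kidney tumors against control kidneys was -0.28.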

How the data were processed

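The authors deposited counts of reads per gene, not normalized, in a table for the Sglt2-Cre set and another for the Pax8-Cre set. Per the labels, RNA of fixed tissue was made into stranded total RNA libraries without removal of ribosomal RNA. The submitters' processing notes name STAR 2.5.2a, Bowtie2, FastQC, MultiQC and the builds GRCm38 and mm10; the counter, its annotation and its use of strand are not given in the sources used here. Of 53379 gene IDs, 53274 matched the reference annotation when the version was ignored. In each library 79.04% to 84.33% of the counts from 1 to 20 were even, and halved counts were tried as an alternative.

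Counts were summed per animal and group. For each of the 9 comparisons, edgeR 4.0.16 (R 4.3.3) was run on the groups compared (TMM, filterByExpr, quasi-likelihood F-test), and Benjamini-Hochberg adjusted p-values under 0.05 over all genes tested were called. The SE came from the fold change and the square root of F. The code was checked on simulated counts. All 44 members could be named, and those called or at the extremes have their values given. The members and lists were chosen with earlier results of these data known. Alternatives were RLE and upper quartile factors, DESeq2 1.42.0, no filter on low counts, sex as a covariate, all groups in a joint fit, limma-voom (limma 3.58.1) with the animal as a random block, the mouse, or for fetuses the stem of the sample title, as a fixed block, and each animal left out. Fits without the kidney tumors of mice 4 and 5, or without the brain tumor of mouse 2, were chosen after seeing the data. Tissues of the same mouse pair the samples by the labels, and their deviations from the group means correlated at -0.042 to 0.155 for kidney tumor with non-transformed kidney, 0.241 to 0.326 with retro-orbital tumor and -0.065 to -0.062 with brain tumor.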

Additional observations from a re-analysis of the deposited data

Results flagged for a closer look

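In groups of 4 to 6 animals, a value stood apart from the rest by Dixon's criterion in 28 of 172 tests. Chance would give about 1 in 20 for independent tests, but these tests share the same animals over many genes. Most belonged to 2 animals. Dysmorphic fetus 5, the one with the most proximal tubule marker RNA (825 CPM), was high in 9 enzymes: Ehhadh at 35.2 CPM against 7.64 to 10.6 in the other dysmorphic kidneys, Acnat1 at 29.3 against 0.22 to 7.29, Acot3 at 2.42 against at most 0.0951, Acot4 at 6.57 against at most 0.533, Hao2 at 16.6 against at most 1.61, Dao at 13.0 against at most 1.09, Pipox at 13.7 against at most 2.65, Cat at 113 against 58.5 to 73.9, and Ephx2 at 44.7 against 5.51 to 9.92. The retro-orbital tumor of mouse 5, with 1298 CPM of these markers, was high in 10 enzymes: Acox2 at 6.43 CPM against at most 1.47, Ehhadh at 34.8 against at most 10.5, Acaa1b at 14.3 against at most 1.64, Pecr at 11.1 against at most 3.35, Acnat1 at 6.43 against at most 0.382, Acnat2 at 24.4 against at most 2.37, Hao2 at 43.9 against at most 3.2, Dao at 10.8 against at most 0.83, Ddo at 2.31 against at most 0.252 and Pipox at 7.33 against at most 0.764. It was also high in Abcd2, at 7.17 CPM against 2.76 to 3.44. The part of tubule RNA in these values was not tested.

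Among kidney tumors, mouse 5 was high in Crot at 425 CPM, Nudt19 at 430 CPM and Agps at 475 CPM, mouse 4 in Acot3 at 7.85 CPM, mouse 2 in Abcd2 at 33.3 CPM, and mouse 6 in Gnpat at 196 CPM. The non-transformed kidney of mouse 5 was high in Amacr, at 69.6 CPM against 45.0 to 48.0. The retro-orbital tumor of mouse 3 was high in Pex5l, at 20.6 CPM against 4.92 to 7.39. Ddo differed between the Sglt2-Cre and Pax8-Cre comparisons by an interaction term, -2.45 ± 0.53 on the log2 scale (edgeR adjusted p = 0.0102).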

How the results depend on the processing

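Limits from sequencing depth were not tested. Hao1 had at most 30 counts in an animal, and other members also rested on few counts in some groups, such as Acot3 with 10 to 81 counts in retro-orbital tumors. No fold change of a called member changed sign in any alternative. Of 304 medians 292 were classed as the same and 12 as moved, by a tolerance that is not given here. The number of called members was less stable, and is given with the genes called in all. For kidney tumors against control kidneys (11 called, 4474 genes) it was 19 with DESeq2 (7070 genes), 7 without a filter on low counts (3668), 17 with sex as a covariate (6118), 27 with the animal as a random block (7446), 26 without the kidney tumors of mice 4 and 5 (7845, enzyme median -1.52), and 0 (without control mouse 2, 1163) to 20 (without mouse 5, 5856) leaving out an animal. Against non-transformed kidney (14 called, 3755 genes) it was 9 without a filter (3003 genes), 30 with the random block (6484), 0 with the replicate block (847), 29 without the kidney tumors of mice 4 and 5 (7115, enzyme median -1.78), and 0 (without mouse 3, 1252) to 20 (without mouse 5, 3873) leaving out an animal. For non-transformed against control kidney the enzyme median was 0.00 with sex as a covariate. For retro-orbital against kidney tumors (22 called) the enzyme median was -1.96 with the random block and -2.06 with the replicate block, and without the kidney tumors of mice 4 and 5 it was -1.19 with 13 called (3529 genes, against 3919). Leaving out an animal gave 7 (without mouse 2, 1805 genes, or 3, 1635) to 20 called (without mouse 1, 4089). For brain against kidney tumors (10 called, 2044 genes) the count was 25 with DESeq2 (5104 genes), 26 with all groups in 1 fit (6548), 0 with the replicate block (0), 4 without the brain tumor of mouse 2 (1012), and 0 (without mouse 2, 300) to 8 (without mouse 6, 1203) leaving out an animal, while the enzyme median was -2.29 to -1.49 leaving out an animal and -1.27 without the kidney tumors of mice 4 and 5. For brain against retro-orbital tumors (0 called, 364 genes) it was 3 with DESeq2 (3080 genes) and 2 with all groups in 1 fit (3816), and the enzyme median was -0.36 to 0.34 leaving out an animal. For dysmorphic against control fetal kidneys (1 called, 605 genes) it was 6 with DESeq2 (2717 genes), 0 with sex as a covariate (5), 2 with the stem of the sample title as a block (409), and 0 (0 genes) to 8 (without dysmorphic fetus 5, 1141) leaving out an animal, and with all groups in 1 fit Crat was lost while 1 other member was called. For control kidney against control fetal kidney the peroxin median was 0.73 (without control fetus 1) to 1.29 (without control fetus 3). For the interaction (1 called, 2185 genes) the count was 2 with RLE factors (2024 genes), 3 with DESeq2 (3712), 2 with halved counts (2234), 3 with the random block (2378), 5 without the kidney tumors of mice 4 and 5 (4253, enzyme median -0.55), and 1 (956 to 2491) to 3 (without mouse 5, 2954) leaving out an animal, while the peroxin median (0.12) was -0.23 (without control fetus 3) to 0.21. The cause of these moves was not tested, except that fits leaving out animals have fewer samples. No random block could be fitted for brain against retro-orbital tumors or for the fetal kidneys, and no replicate block for brain against retro-orbital tumors, which share 1 mouse.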
